A study of Mus musculus with 6 samples.

Results

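Complement is a cascade of plasma and cell surface proteins that marks targets with fragments of C3 and can open pores in their membranes. The 9 genes described here encode components and regulators of that cascade: *C1ra* and *C1s* (proteases of the first complex), *C4b* and *C2* (classical pathway), *C3* (where all pathways meet), *Cfb* (alternative pathway), *C3ar1* (a receptor), and *Cd55* and *Cd59a* (inhibitors on the cell's own membrane). They were chosen by gene symbol, by a rule that uses no measured value, but with earlier results of these data known. The shares of called genes given below, also those of further gene lists, are therefore descriptive. All 9 were present among the 20405 genes with a symbol on the array, each with 1 probe set. The liver makes most complement in plasma, but epithelial and mesothelial cells also make C3 and other components, and they carry membrane inhibitors that protect them from the cascade.

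RNA was compared between early passage M0505 cells, a line of mouse ovarian surface epithelial cells established from FVB/N ovaries, and STOSE cells, the line that arose when M0505 cells transformed spontaneously over long-term passage. Each group holds 3 biological replicates, 1 Affymetrix Mouse Gene ST array each, and both lines were grown in the same medium with fetal calf serum, EGF, an insulin supplement and antibiotics, with no other treatment. Each group is a single cell line, so the p-values measure the spread between cultures of these lines and not between independent transformations. Values are log2 robust multi-array average (RMA) values, and differences are STOSE minus M0505 on that scale, with the standard error (SE) from limma. In whole cultures, fewer cells that express a gene and less RNA per cell cannot be told apart.

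Arrays of a line had a Pearson's r of 0.997 to 0.999 with each other over the 20405 genes, and arrays of different lines one of 0.943 to 0.95 (genes are not independent replicates). As the background level served a log2 value of 4.74, under which 95% of the values of 1134 olfactory receptor probe sets lay. Of 11 markers of ovarian surface epithelium, 10 lay above it in both lines. At an adjusted p under 0.05 and at least 2-fold, 4 were called lower in STOSE cells (*Krt7*, *Krt8*, *Krt19* and *Gata4*) and 0 higher. That is 36.4% lower, beside 7.59% of all genes. By the adjusted p alone 8 of the 11 were lower and 0 higher, beside 24.8% and 31.6% of all genes. The 8 included *Wt1* (log2 difference −0.63), *Msln* (−0.61) and *Upk3b* (−0.34), which stayed well above the background. The mean log2 value of the 11 markers per array was 10.62 to 10.71 in M0505 cells and 9.25 to 9.38 in STOSE cells. Of 12 leukocyte and macrophage markers, 7 lay below the background in both lines, including *Ptprc*, *Csf1r*, *Emr1* and *Itgam*, and the mean per array was 4.86 to 4.92 and 4.91 to 4.94. *Cd68*, a lysosomal protein gene on that list, was the 1 gene of the list called, at 9.78 ± 0.26 (SD, n = 3) in M0505 cells and 6.96 ± 0.30 in STOSE cells. The endothelial mean was 5.66 to 5.76 and 4.97 to 5.06, with *Kdr* the 1 gene called (lower), and *Pecam1* below the background in both lines. The stromal list, with means of 8.64 to 8.69 and 8.71 to 8.73, held *Thy1* higher and *Col1a2* lower, and of 5 hepatocyte markers all but *Apoa1* lay below the background in both lines. The part of the epithelial marker shift in the results below was not tested.

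Of the 9 complement genes, 4 were lower in STOSE cells at an adjusted p under 0.05 and at least 2-fold: *C2*, *C1s*, *Cd55* and *Cd59a*. That rule called 7.59% of all genes lower and 4.9% higher. All 9 had a mean above the background in at least 1 line. Of all genes for which that held, the rule called 10.4% lower and 6.72% higher. None of the 9 was called higher by limma, while 1 (*C3ar1*) was higher at an unadjusted limma p under 0.05. The methods' t-test with adjustment and the same fold also called 0, and its unadjusted p for *C3ar1* was 0.0601. By the adjusted p alone 7 of the 9 were lower and 1 was higher, against 24.8% and 31.6% of all genes, and in either direction 8 against 56.5%. Among all genes above the background in at least 1 line, 33.1% were lower and 37.7% higher by the adjusted p alone. The arrays of the lines did not overlap for 8 of the 9, with 7 lower and 1 higher in STOSE cells, against 27% and 37.6% of all genes and 64.6% in either direction. Over the 9 genes the median difference was −0.89 on the log2 scale, and over all genes it was 0.08.

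**Figure D1:**
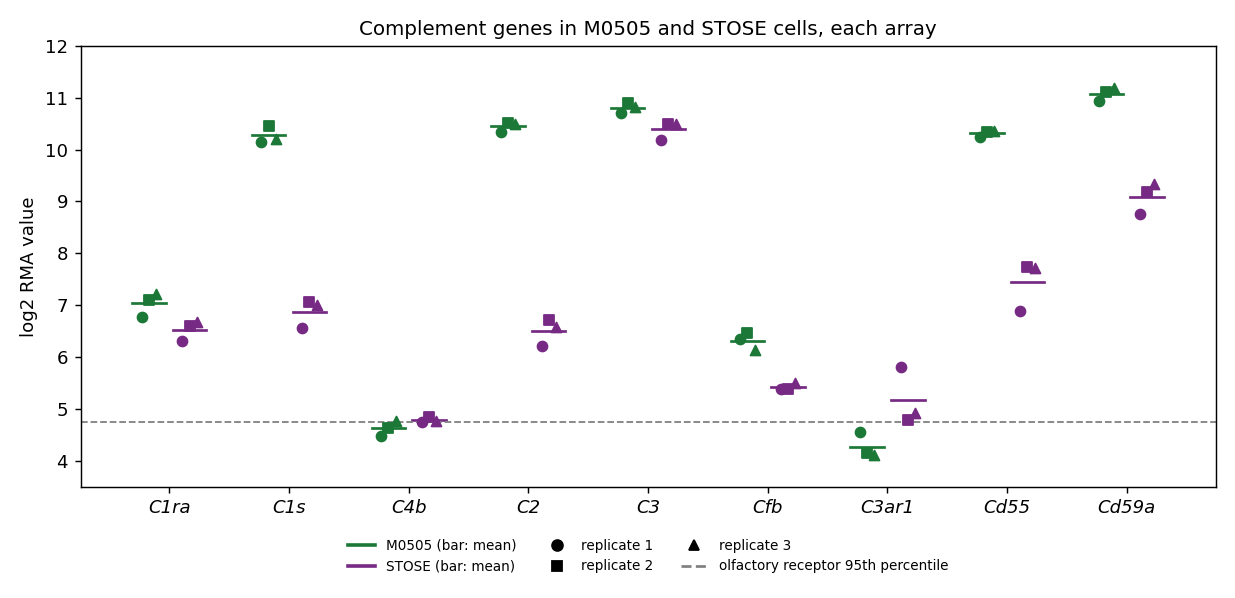
Log2 RMA values (vertical axis) of the 9 complement genes on each M0505 array (green) and STOSE array (purple); bars are means of 3 arrays, symbols are replicate numbers and the dashed line is the olfactory receptor 95th percentile of 4.74. *C1s*, *C2*, *Cd55* and *Cd59a* drop in every STOSE array, while *C3* stays above 10 in all 6 arrays.

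Among the 6 genes of the 9 with a RefSeq promoter window, 4 are shown because they include a large fall (*C1s*, *Cd55*), a smaller fall (*Cd59a*) and the gene that changed little (*C3*). The sequences are the 250 bases before the annotated start on assembly GRCm38.p6, each 5′ to 3′ on the strand of its gene. Capitals mark matches, on either strand, to an NF-κB-like motif (GGGA and CC with any 4 bases between), a C/EBP-like motif (TTGCNNCAA), a STAT-like motif (TTCNNNGAA) or an interferon response-like motif (GAAA and GAAA with any 2 bases between). The *C1s* sequence lies at chr6:124542360-124542609 (minus strand), that of *Cd55* at chr1:130462745-130462994 (minus strand), that of *Cd59a* at chr2:104095551-104095800 (plus strand) and that of *C3* at chr17:57228137-57228386 (minus strand).
C1s: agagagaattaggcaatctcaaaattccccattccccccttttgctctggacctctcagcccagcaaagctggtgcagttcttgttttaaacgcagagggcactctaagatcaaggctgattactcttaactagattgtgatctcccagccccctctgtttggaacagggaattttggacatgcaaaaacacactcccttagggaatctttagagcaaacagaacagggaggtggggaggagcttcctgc
Cd55: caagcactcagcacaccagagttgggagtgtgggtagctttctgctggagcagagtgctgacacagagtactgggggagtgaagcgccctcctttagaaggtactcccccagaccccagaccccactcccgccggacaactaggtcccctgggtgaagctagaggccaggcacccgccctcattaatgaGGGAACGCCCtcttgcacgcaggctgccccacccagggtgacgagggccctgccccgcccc
Cd59a: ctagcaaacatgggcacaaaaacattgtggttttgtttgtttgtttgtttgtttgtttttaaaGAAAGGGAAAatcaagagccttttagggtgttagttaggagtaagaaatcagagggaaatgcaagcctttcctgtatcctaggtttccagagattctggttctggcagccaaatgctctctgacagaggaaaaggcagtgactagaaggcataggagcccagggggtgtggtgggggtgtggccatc
C3: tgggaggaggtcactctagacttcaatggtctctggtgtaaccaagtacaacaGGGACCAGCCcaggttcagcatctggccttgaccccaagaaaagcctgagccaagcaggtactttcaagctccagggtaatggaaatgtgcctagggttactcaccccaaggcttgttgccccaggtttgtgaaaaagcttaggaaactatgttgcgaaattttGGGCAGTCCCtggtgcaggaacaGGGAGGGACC

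In the full windows of 300 bases, which also take in 50 bases after the start, *C3* held 3 matches to the NF-κB-like letters, at positions −197, −33 and −10, counted from 0 at the start to the first base of the match. *Cd55* held 1, at −61, and *C1s* held 1, at 3 from the start used above (GGCCACTCCC) and at −35 from another annotated start. *Cd59a* held 1 interferon response-like match at −187 (GAAAGGGAAA), and *C1ra* 1 STAT-like match after its start. *C3ar1* held no match to any of the 4. No match overlapped another. Over all 32851 promoter windows, 20.7% held the NF-κB-like letters, 2.08% the C/EBP-like, 8.30% the STAT-like and 3.44% the interferon response-like. A match is a description of letters and not of binding.

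C1r and C1s are paired serine proteases. Once C1q binds a target, C1r cleaves C1s, and C1s then cleaves C4 and C2. *C1s* (named *C1s1* in RefSeq, chromosome 6) had log2 values of 10.16, 10.45 and 10.21 in the M0505 arrays and 6.56, 7.06 and 7.0 in the STOSE arrays. Every STOSE array lay more than 3 log2 units under every M0505 array. The fall was 10.5-fold (log2 difference −3.40, SE 0.14, limma adjusted p = 3.15e-07), and without any single array it stayed between 9.46-fold and 11.3-fold. Its partner *C1ra*, also on chromosome 6, had values of 6.78, 7.11 and 7.23 in M0505 cells and 6.30, 6.60 and 6.68 in STOSE cells. These groups lay next to each other without overlap, and the 1.42-fold difference (−0.51, SE 0.13, adjusted p = 0.0120) was under the 2-fold threshold. With arrays centred on their median it was −0.31 and not past the adjusted p. Nor was it past with a further quantile normalization (−0.32) or in the methods' t-test with adjustment.

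The near copies of these proteases were measured by probe sets of their own, and whether probes cross-hybridize between copies was not tested. *C1rb* had means of 9.74 ± 0.13 (SD, n = 3) in M0505 cells and 9.16 ± 0.17 in STOSE cells, a log2 fold change of −0.58 (SE 0.10, adjusted p = 0.00129) beside the −0.51 of *C1ra*. *Gm5077*, which is *C1s2* in RefSeq, fell from 6.93 ± 0.29 to 5.32 ± 0.47 (−1.62, SE 0.23, adjusted p = 0.000399). Both *C1s* genes were therefore called lower, and neither *C1r* gene reached 2-fold.

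C2 and factor B are related proteases that supply the cutting subunit of the C3 convertases, C2 in the classical and lectin pathways and factor B in the alternative pathway. Their genes are immediate neighbours on chromosome 17. *C2* read 10.34, 10.51 and 10.50 in M0505 cells and 6.21, 6.71 and 6.59 in STOSE cells. It had the largest change of the 9 genes, at 15.4-fold lower (log2 difference −3.95, SE 0.12, adjusted p = 7.37e-08), and ranked 94 of all 20405 genes when ordered from the largest fall. Without any single array the fall was between 13.9-fold and 16.6-fold. *Cfb* read 6.34, 6.46 and 6.14 in M0505 cells and 5.38, 5.38 and 5.49 in STOSE cells. All of these values are above the background and the groups are apart, but the 1.86-fold fall (−0.89, SE 0.09, adjusted p = 4.72e-05) did not reach 2-fold. Its 95% interval ran from −1.10 to −0.69 and so took in a 2-fold change.

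Among all genes, the 3 whose centred log2 values over the 6 arrays lay nearest to those of *C2* by Euclidean distance were *Kcnd2* (distance 0.30, log2 fold change −4.17), *Lsr* (0.33, −3.78) and *Vtcn1* (0.34, −4.20). Over 2 groups of 3 arrays this measure mostly reads the size of the difference between lines.

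C3 and C4 are built alike and attach to targets through an internal thioester bond. *C3*, on chromosome 17, read 10.71, 10.89 and 10.82 in M0505 cells and 10.19, 10.49 and 10.49 in STOSE cells. It was well above the background in every array. The groups did not overlap, and the difference was small, at 1.34-fold lower (log2 difference −0.42, SE 0.10, adjusted p = 0.00594) with a 95% interval from −0.64 to −0.20 that excluded a 2-fold change. With arrays centred on their median it was −0.22 and not past the adjusted p. *C4b*, also on chromosome 17, read 4.48, 4.63 and 4.76 in M0505 cells and 4.76, 4.84 and 4.76 in STOSE cells. The groups overlapped around the background level, and the difference was not past the threshold (0.16, SE 0.08, adjusted p = 0.118, 95% interval −0.02 to 0.34). Its near copy *C4a*, which RefSeq lists as a transcribed pseudogene, read 4.86 ± 0.19 and 5.24 ± 0.14 (0.38, SE 0.11, adjusted p = 0.0160). Values of the pair are uncertain where their sequences are shared.

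C3a, the small fragment released from C3, signals through the receptor encoded by *C3ar1* on chromosome 6. *C3ar1* read 4.55, 4.14 and 4.11 in M0505 cells, all below the background level, and 5.81, 4.79 and 4.93 in STOSE cells, all above it. STOSE replicate 1 stood apart from the other two. Of the 12 leukocyte and macrophage markers, 4 were higher in STOSE cells by the adjusted p alone (*Cd14* by 0.97, *Mrc1* by 0.87, *Lyz2* by 0.56 and *Cd3e* by 0.22 on the log2 scale) and 1, *Cd68*, was lower. That is 33.3% higher and 8.33% lower, beside 31.6% and 24.8% of all genes, so the share higher was near that of all genes. The mean values of *Mrc1* and *Lyz2*, like those of *Ptprc*, *Csf1r* and *Itgam*, lay below the background in both lines. The part of any leukocytes or macrophages in the *C3ar1* value was not tested. The measured log2 fold change was 0.91 (SE 0.25, adjusted p = 0.0146), which is at least 1.35-fold higher against the background level, with a 95% interval of 0.33 to 1.49. It was 0.59 without STOSE replicate 1 and 1.10 without STOSE replicate 2. Without M0505 replicate 2 or 3 the adjusted p was 0.0551 and 0.0538.

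CD55, or decay-accelerating factor, takes C3 convertases apart on the cell that carries it, and CD59 blocks assembly of the terminal pore. Both proteins are held in the membrane by a lipid anchor. *Cd55*, on chromosome 1, read 10.24, 10.35 and 10.35 in M0505 cells and 6.88, 7.73 and 7.72 in STOSE cells. The M0505 arrays were tight and STOSE replicate 1 lay under the other two. The fall was 7.32-fold (a log2 value of −2.87, SE 0.21, adjusted p = 6.64e-06). Without any single array it lay between 6.03-fold and 8.09-fold, and the smallest was that without STOSE replicate 1. *Cd59a*, on chromosome 2, read 10.93, 11.11 and 11.20 in M0505 cells and 8.75, 9.18 and 9.34 in STOSE cells. It fell 3.96-fold (−1.99, SE 0.15, adjusted p = 7.71e-06), and between 3.52-fold and 4.32-fold without any single array. In STOSE cells it was still far above the background.

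The second mouse copies of these inhibitor genes lay below the background in both lines. *Cd59b* read 4.51 ± 0.07 in M0505 cells and 2.88 ± 0.13 in STOSE cells (adjusted p = 8.57e-07). *Daf2*, which is *Cd55b* in RefSeq, read 4.03 ± 0.17 and 3.41 ± 0.05 (adjusted p = 0.000416), and no fold is given for either.

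To set the changes of paired genes side by side, the difference of their log2 values was taken on each array and centred on the M0505 mean. The pairs were chosen after the values were seen and are given without a test. Here the SE comes from the variances of the arrays within each line and not from limma. Relative to *C1ra*, *C1s* was lower by 2.98, 2.78 and 2.92 in the STOSE arrays, a mean shift of −2.89 (SE 0.14). Relative to *Cfb*, *C2* shifted by −3.05 (SE 0.18). Relative to *Cd55*, *C3* was higher by 2.81, 2.26 and 2.29 in the STOSE arrays, a mean of 2.45 (SE 0.18), or 5.48-fold. Relative to *Cd59a*, *C3* was higher by 1.57 (SE 0.10), or 2.97-fold. Every STOSE array lay beyond all M0505 arrays in these 4 pairs. Between the lines the RNA of *C3* fell less than that of *Cd55* or *Cd59a*. This does not extend to all membrane regulators. Among the further ones, given below, *Cr1l* was higher and *Susd4* lower in STOSE cells.

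**Figure D2:**
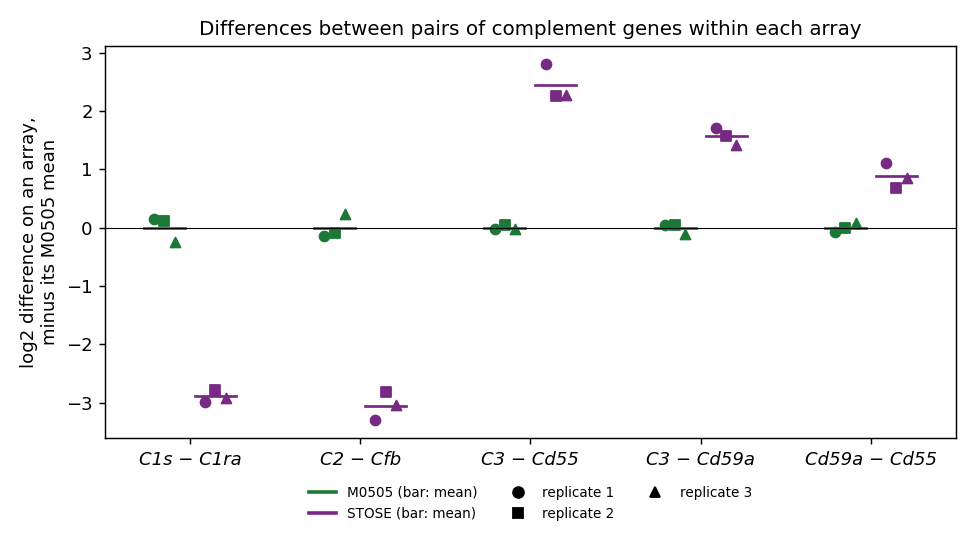
Difference of log2 values between paired complement genes on each array (vertical axis), minus the M0505 mean of the pair, for M0505 (green) and STOSE (purple), with bars for the means of 3 arrays and symbols for replicate numbers. *C1s* shifts by −2.89 against *C1ra* and *C2* by −3.05 against *Cfb*, while *C3* shifts by 2.45 against *Cd55* and 1.57 against *Cd59a*.

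**Figure D3:**
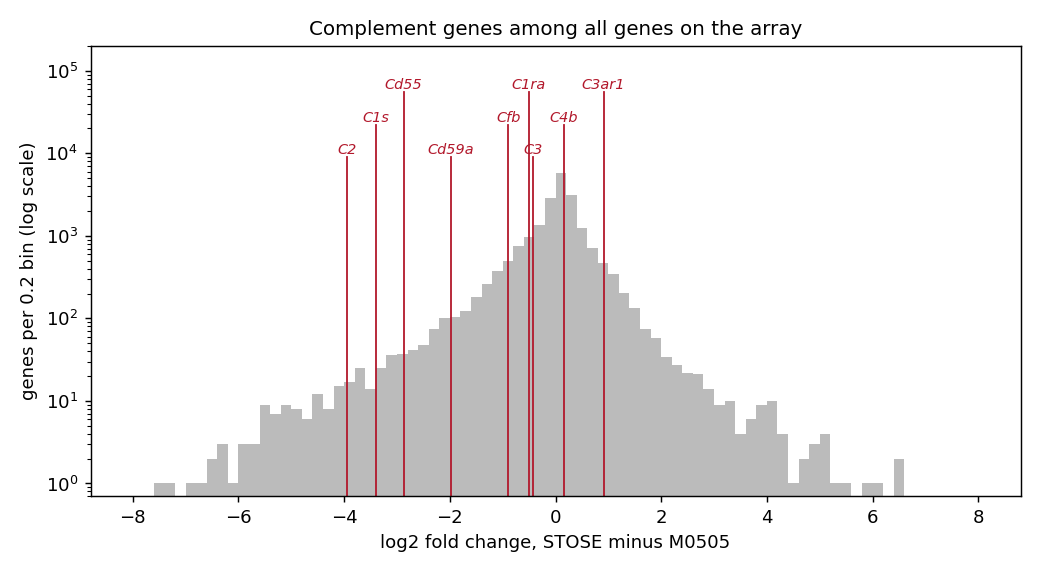
Histogram of the log2 fold change, STOSE minus M0505, of all 20405 genes (horizontal axis; genes per bin on a log scale), with the 9 complement genes as red lines. *C2*, *C1s*, *Cd55* and *Cd59a* lie in the lower tail, from −3.95 to −1.99, and the other 5 between −0.89 and 0.91.

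The rest of the pathway was read from a list of 47 further complement genes, of which 45 were on the array. Of these, 6 were called lower and 1 was called higher, the median log2 fold change was 0.07, and 23 lay below the background in both lines. These are 13.3% and 2.22% of the list, beside 7.59% and 4.9% of all genes. By the adjusted p alone 11 were lower and 11 higher, 24.4% each, beside 24.8% and 31.6% of all genes. The soluble regulators held 3 of the genes called lower and the 1 called higher. *Clu*, the gene of clusterin, which binds the terminal complex in fluid, read 9.44, 9.81 and 9.75 in M0505 cells and 6.57, 6.75 and 6.28 in STOSE cells, 8.79-fold lower (−3.14, SE 0.14, adjusted p = 4.27e-07). Factor I is the protease that inactivates C3b and C4b. *Cfi* read 6.26, 6.75 and 6.83 in M0505 cells and 3.51, 4.19 and 4.24 in STOSE cells. All 3 STOSE arrays were below the background, so the fall is given as at least 3.66-fold against the background level (adjusted p = 1.37e-05). *Serping1*, which encodes the C1 inhibitor that shuts off C1r and C1s, was the 1 gene called higher. It read 5.28, 5.53 and 5.21 in M0505 cells and 6.67, 6.84 and 6.43 in STOSE cells, 2.48-fold higher (1.31, SE 0.12, adjusted p = 2.89e-05).

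Among 6 further membrane regulators, *Susd4*, a complement control protein gene, fell from 6.52 ± 0.05 to 4.87 ± 0.15 (log2 difference −1.65, SE 0.08, adjusted p = 1.01e-06), and *Cd59b* was described above. *Cr1l*, the gene of Crry, a rodent inhibitor of C3 convertases, was higher in STOSE cells by less than 2-fold, at 7.73 ± 0.08 and 8.15 ± 0.05 (0.42, SE 0.06, adjusted p = 0.000684). *Cd46* lay below the background in both lines. In the early steps, the C1q chain genes *C1qa*, *C1qb* and *C1qc* were below the background in both lines, so the partners of C1r and C1s in the first complex were not measurable above it. Of the terminal pathway, *C8g* was the 1 gene of 5 measured that lay above the background, with a log2 fold change of −0.96 (SE 0.09), and *C6*, *C8a*, *C8b* and *C9* were below it. The 9 other receptor genes had log2 fold changes of −0.01 to 0.52, and 6 of them lay below the background in both lines. None was called, and 3 (33.3%) were higher at the adjusted p alone, beside 31.6% of all genes. *C1qbp*, which encodes a mainly mitochondrial protein that binds C1q, had the largest change of the 9 (adjusted p = 0.000436).

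**Figure D4:**
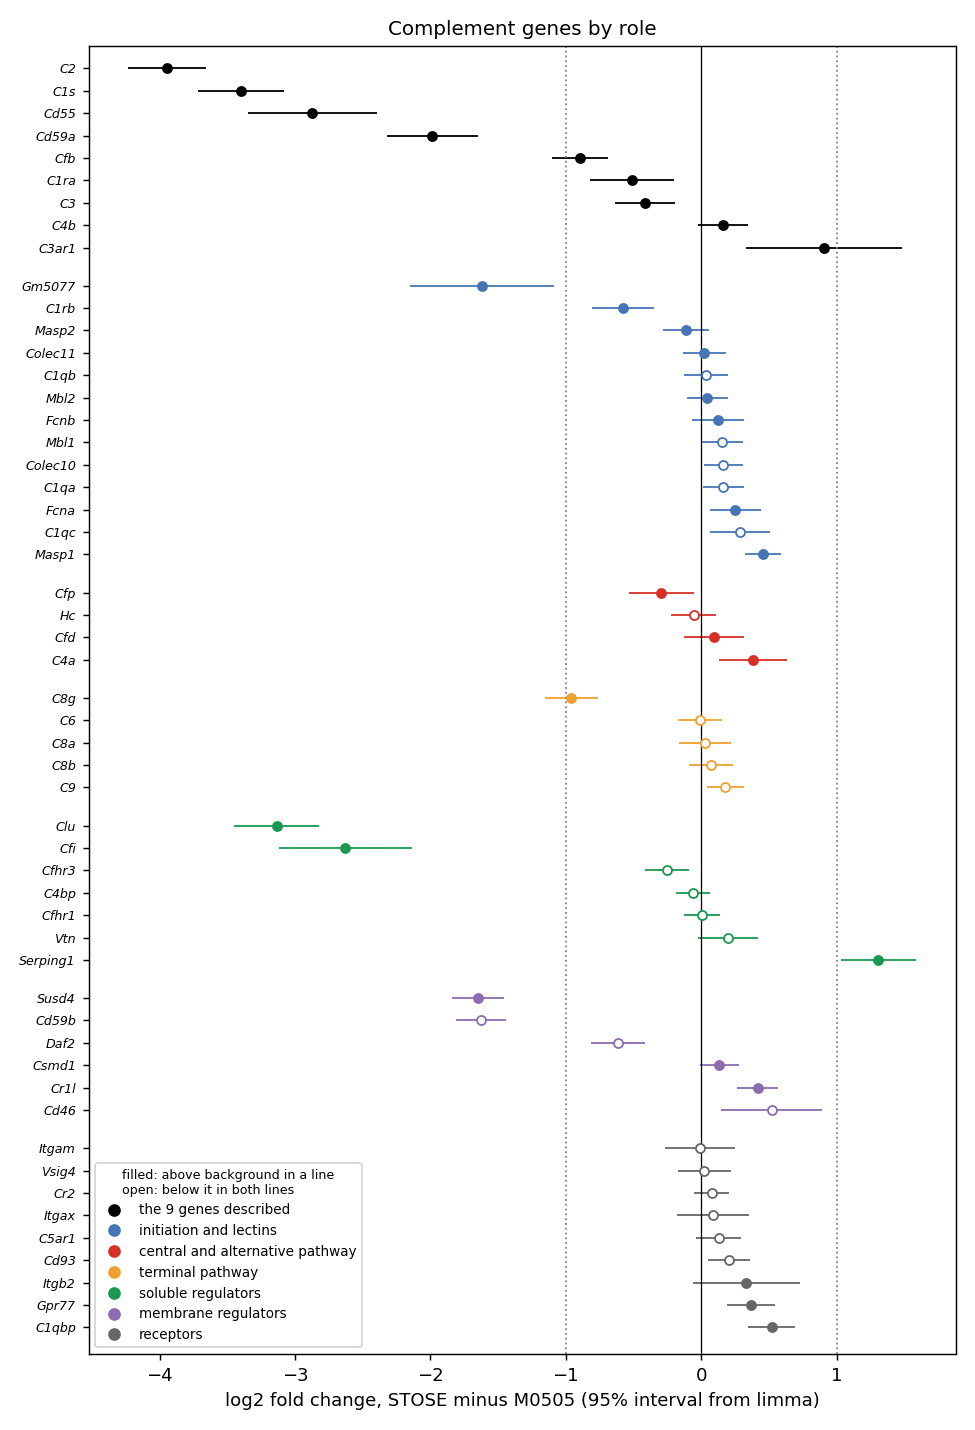
Log2 fold change, STOSE minus M0505, with the 95% interval from limma (horizontal axis) for the 9 complement genes (black) and further genes of the pathway, grouped and coloured by role; open points are below the background in both lines and dotted lines are 2-fold. The soluble regulators *Clu* and *Cfi* lie left of −1, *Serping1* lies right of 1, and the receptor genes lie between −0.01 and 0.52.

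*C3* and *Cfb* are known as acute phase genes that inflammatory cytokines induce, so 31 acute phase and cytokine response genes were read beside them. Of these, 4 were lower (among them *Saa3*, *Lcn2* and *Hp*) and 5 were higher (*Ptx3*, *Cp*, *Il1a*, *Il6ra* and *Nfkb1*), with a median log2 fold change of 0.04. That is 12.9% lower and 16.1% higher, beside 7.59% and 4.9% of all genes. *Ptx3*, which encodes a pentraxin that binds C1q, rose from 3.71 ± 0.12 (SD, n = 3), below the background, to 6.73 ± 0.18, at least 3.96-fold (adjusted p = 1.14e-07). *Cp*, the ceruloplasmin gene, rose from 4.80 ± 0.34 to 7.33 ± 0.24 (2.53, SE 0.18, adjusted p = 5.50e-06). Its M0505 replicates 2 and 3 lay below the background, at 4.67 and 4.56, so the size of its rise is uncertain. *Saa3*, a serum amyloid A gene, fell from 9.84 ± 0.46 to 6.45 ± 1.01 (−3.40, SE 0.45, adjusted p = 0.000274), and STOSE replicate 1 was its lowest array at 5.30. *Lcn2*, the lipocalin 2 gene, was lower by less (−1.36, SE 0.27, adjusted p = 0.00278). *Il1a* rose from 3.49 ± 0.18, also below the background, to 6.42 ± 0.13, at least 3.19-fold. *Il6ra* rose from 6.73 ± 0.08 to 8.31 ± 0.07. Genes of this list were called in both directions. *Hp* (−1.09) and *Nfkb1* (1.02) lay near 2-fold. *Hp* was at −0.94 without M0505 replicate 1 and −0.96 without STOSE replicate 1, and *Nfkb1* at 0.95 without M0505 replicate 3 and 0.99 without STOSE replicate 1.

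Within each line the 9 genes tended to be lowest in the array numbered replicate 1. In M0505 cells replicate 1 was the lowest array for 7 of the 9 genes, against 38% of all genes, and in STOSE cells for 8 of the 9, against 33.7%. Both held for 7 of the 9, against 16.3% of all genes. For *C4b* STOSE replicates 1 and 3 differed by less than 0.01, and so did STOSE replicates 1 and 2 for *Cfb*. *C3ar1* went the other way, with replicate 1 its highest array in both lines. With both of these arrays left out, an alternative chosen after seeing the data, 4 of the 9 were still called lower and 0 higher, with log2 fold changes of −3.86 for *C2*, −3.30 for *C1s*, −2.63 for *Cd55* and −1.89 for *Cd59a*.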

How the data were processed

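The authors hybridized total RNA of M0505 and STOSE cells (3 arrays each) and deposited 1 table of log2 RMA values, background corrected and quantile normalized across arrays, with Affymetrix Expression Console and RMA named in the submitters' processing notes (versions and genome build not given in the sources used here). The table also holds the authors' line means and fold changes, which were not used. It held 28944 probe sets, 5414 of them without a symbol and left out. For 1613 genes with several probe sets the probe set of highest mean value was used, giving 20405 genes. Arrays carry no sequencing depth. Their number limits the precision.

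A linear model per gene was fitted in limma 3.58.1 (R 4.3.3; lmFit, then eBayes) without covariates, and p-values were adjusted by Benjamini-Hochberg over the 20405 genes. Called genes had an adjusted p under 0.05 and at least 2-fold change. Where all arrays of 1 line lay below the background, its arrays were set to that level for an "at least" fold. On simulated data for this comparison, 200 of 20405 genes were shifted up or down by a log2 value of 2 or 3. Of these, 100% were recovered with 0 false calls. All planted shifts lay well beyond the 2-fold threshold, so recovery of changes near 2-fold was not tested. An exact permutation test of 3 against 3 arrays reaches at best a two-sided p of 0.1 and was not run. Genes, neighbours and promoters were matched to RefSeq on GRCm38.p6 by symbol or a synonym of 1 gene, for all 9 genes and for 19899 of 20405. The deposited table names no build, so only promoter coordinates are given.

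The 9 genes and the lists were chosen with earlier results of these data known. Named singly were the 9, their near copies, called genes of the lists and markers that were called or above background, and the 3 genes nearest to the largest called change. Some above-background markers are given only as counts, and 2 called genes of the lists are counted but not reported singly here. The alternatives were a further quantile normalization, centring, filters on dim genes, other uses of probe sets, the methods' t-test, limma with trend and robust estimation, other fold thresholds, the replicate number as a block and leaving out each array.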

Additional observations from a re-analysis of the deposited data

How the results depend on the processing

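The 4 called falls (*C2*, *C1s*, *Cd55* and *Cd59a*) were called under all alternatives but 1, the 4-fold threshold, which *Cd59a* missed. No log2 fold change of the 28 genes followed changed sign. With each array left out, the count of the 9 genes called lower was 4 to 4 and called higher 0 to 1, the wider list 6 to 7 lower and 1 to 1 higher, and all genes 1508 to 1591 lower and 955 to 1065 higher. The 1 gene called higher was *C3ar1*, without M0505 replicate 1 (1.05), STOSE replicate 2 (1.10) or STOSE replicate 3 (1.03). Without a fold threshold, 7 of the 9 were lower and 1 higher, in the wider list 11 and 11, and over all genes 5066 and 6454. At 4-fold the wider list had 2 lower and 0 higher, and all genes 509 and 186. Without the dimmest 50% of genes, which removes genes of the list, the wider list had 2 lower and 0 higher.

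Centring each array on the median of the gene table added 0.20 to every log2 fold change, so that the median of all genes was 0.28. It called 1 of the 9 higher (*C3ar1*, 1.11), and 1466 genes higher and 1177 lower over all, or 55.5% of calls higher against 39.2%. At the adjusted p alone it lost *C3* (−0.22, adjusted p = 0.0757) and *C1ra* (−0.31, adjusted p = 0.0735) and gained *C4b* (0.36, adjusted p = 0.00437), so these 3 small differences depend on the scaling. Centring on all 28944 probe sets, added after the data were seen, added 0.01 and moved no call among the 9. Same-numbered arrays of the lines deviated together with r = 0.26, 0.04 and 0.25 across genes. STOSE replicates 1 and 3 each correlated best with the same-numbered M0505 array, and STOSE replicate 2 with M0505 replicate 3 (0.12). The sample labels state no pairing, and these values cannot settle whether cultures were paired. With the replicate number as a block, 4 of the 9 were lower and 0 higher, and 1548 and 1001 over all genes. Signal over background limits the values of *C4b*, *C3ar1*, *Cfi*, *Cd59b*, *Daf2*, *Ptx3* and *Il1a*, which lay below the background in at least 1 line. It also limits the fold changes of *Cp* and *C4a*, with M0505 arrays below it, and of *Lcn2*, *Susd4* and *C8g*, with a STOSE array below it.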

Other observations

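The place of the 9 genes was read from the order of RefSeq protein-coding genes, taking the 2 nearest measured genes on each side, a choice made after the values were seen. Of 28 such neighbours that are not among the 9, 4 were called lower and 0 higher by limma, against 7.59% and 4.9% of all genes. The 4 were *C1rl* (−1.40), *Gm5077* (−1.62), *Cd59b* (below the background in both lines) and *Thsd7b* (−1.15). *C1rl* and *Gm5077* belong to the same protease family as the C1r and C1s genes beside them on chromosome 6, and *Cd59b* is the near copy of *Cd59a* on chromosome 2. *C1rl*, which encodes a C1r-like protease, had log2 means of 7.83 in M0505 cells and 6.43 in STOSE cells. In that stretch of chromosome 6, *C1rl*, *C1ra*, *C1s*, *C1rb* and *Gm5077* were all lower in STOSE cells at the adjusted p of the main fit. Their log2 fold changes ran from −0.51 to −3.40, and the next gene, *Clstn3*, was at −0.24 (adjusted p = 0.0390). *C1ra* was not past the adjusted p in limma with a further quantile normalization (0.106) or median centring (0.0735), nor in the adjusted t-test (0.0811). Whether probes cross-hybridize between these near copies was not tested.

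Around *C2* on chromosome 17 no neighbour was called. *Cfb* on one side was at −0.89 and *Zbtb12* on the other was at 0.13 (adjusted p = 0.116), *Rdbp* (*Nelfe* in RefSeq) was at 0.64 and *Ehmt2* at −0.21. The 4 genes around *C4b* were at −0.15 to 0.52, and those around *C3* at −0.68 to 0.49. None of these was called.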
